A study of Homo sapiens with 6 samples.

Results

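The 10 genes described here encode regulators of the integrated stress response. They are the kinase genes EIF2AK3 (PERK) and EIF2AK4 (GCN2), the transcription factor genes ATF4, DDIT3 (CHOP) and ATF3, the phosphatase adaptor gene PPP1R15A (GADD34), the pseudokinase gene TRIB3 and the output genes CHAC1, GDF15 and STC2. Each was taken by its symbol from a table of 27776 genes with raw read counts, and each of the 10 passed the filter on low counts that left 15865 genes for testing. The cells were MDA-MB-231, an established human line of triple-negative breast cancer, and polyadenylated RNA was sequenced from 3 khellin libraries and 3 control libraries. Khellin is a furanochromone known from the fruits of Ammi visnaga. Both groups came from this 1 cell line with no engineered genotype named, and the labels used here name no dose, exposure time or vehicle for khellin. In the titles the second group is called control, while the design text names a docetaxel-resistant one in its place, so the resistance status of the control cells, and of the khellin cells, is uncertain.

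In the integrated stress response, kinases that sense different stresses phosphorylate the translation initiation factor eIF2 on its alpha subunit, which lowers general protein synthesis while the ATF4 mRNA is translated more. PERK senses misfolded protein in the endoplasmic reticulum, GCN2 senses a lack of amino acids, HRI (EIF2AK1) haem shortage and mitochondrial stress, and PKR (EIF2AK2) double-stranded RNA. ATF4 and its partner CHOP then drive genes of amino acid supply, cell death and feedback, among them GADD34, which brings protein phosphatase 1 to eIF2 and reverses the phosphorylation. Much of this pathway is set by translation and phosphorylation, which RNA sequencing does not measure.

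Total counts ranged from 28631578 to 30291087 in khellin libraries and from 29662956 to 30956610 in control libraries (2-sided exact permutation p = 0.3, where 0.1 is the smallest that 3 against 3 libraries allow). The titles name biological replicates without saying whether these were separate cultures, so p-values measure the spread between these libraries. Levels are given as CPM, read counts scaled to library size with TMM factors, and 3 counts corresponded to 0.0969 to 0.105 CPM. The line's markers VIM, CD44, KRT18, KRT8 and AXL summed to 3490 to 3640 CPM in khellin and 3420 to 3550 CPM in control libraries. VIM made up most of this sum, in which the single genes differed. CD44 was lower in khellin (494, 474 and 482 CPM) than in control libraries (602, 579 and 592 CPM). VIM, KRT18 and KRT8 were higher without overlap, KRT8 with 175, 179 and 173 against 135, 140 and 147 CPM, and AXL overlapped. Of the 4 markers listed as low in this line, CDH1, ESR1 and PGR were each under 1 CPM in every library. ERBB2, the HER2 receptor gene, was not, with 115, 123 and 116 CPM in khellin and 101, 105 and 104 CPM in control libraries. Of the markers of other cell types, those of fibroblasts summed to 10.8 to 11.4 CPM in khellin and 5.88 to 6.61 CPM in control libraries, nearly all of it COL1A1, with PDGFRA at 0 in 5 of 6 libraries. Blood cell markers summed to 2.28 to 3.23 CPM in khellin and 1.56 to 2.02 CPM in control libraries, and endothelial markers to 2.28 to 3.02 CPM in khellin and 1.75 to 1.82 CPM in control libraries. The part of these markers in the results was not tested.

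Of the 10 regulators, 5 rose with khellin (STC2, GDF15, EIF2AK3, ATF3 and ATF4), 2 fell (PPP1R15A and EIF2AK4), and DDIT3, CHAC1 and TRIB3 did not pass the test of edgeR (quasi-likelihood) at an adjusted p under 0.05. Of all tested genes 10.6% were higher, 8.82% lower and 19.4% called in either direction, against 70% of the 10 genes. Khellin and control libraries did not overlap for 9 of the 10, against 38.2% of all tested genes, and CHAC1 was the exception. The changes were mostly small. Of the 7 that passed, 5 had an absolute log2 fold change under 0.5, STC2 alone reached 1, and the median over the 10 was 0.14 against 0.0024 over all tested genes. The count of 5 higher regulators became 3 without control replicate 2 and 3 without khellin replicate 1, 2 or 3, where ATF4 and ATF3 lost their calls, while the 2 falls held in each of these fits. The genes were chosen with results of these data known, so no test of the share was made. In bulk RNA, fewer cells that express a gene and less RNA per cell cannot be told apart.

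**Figure D1:**
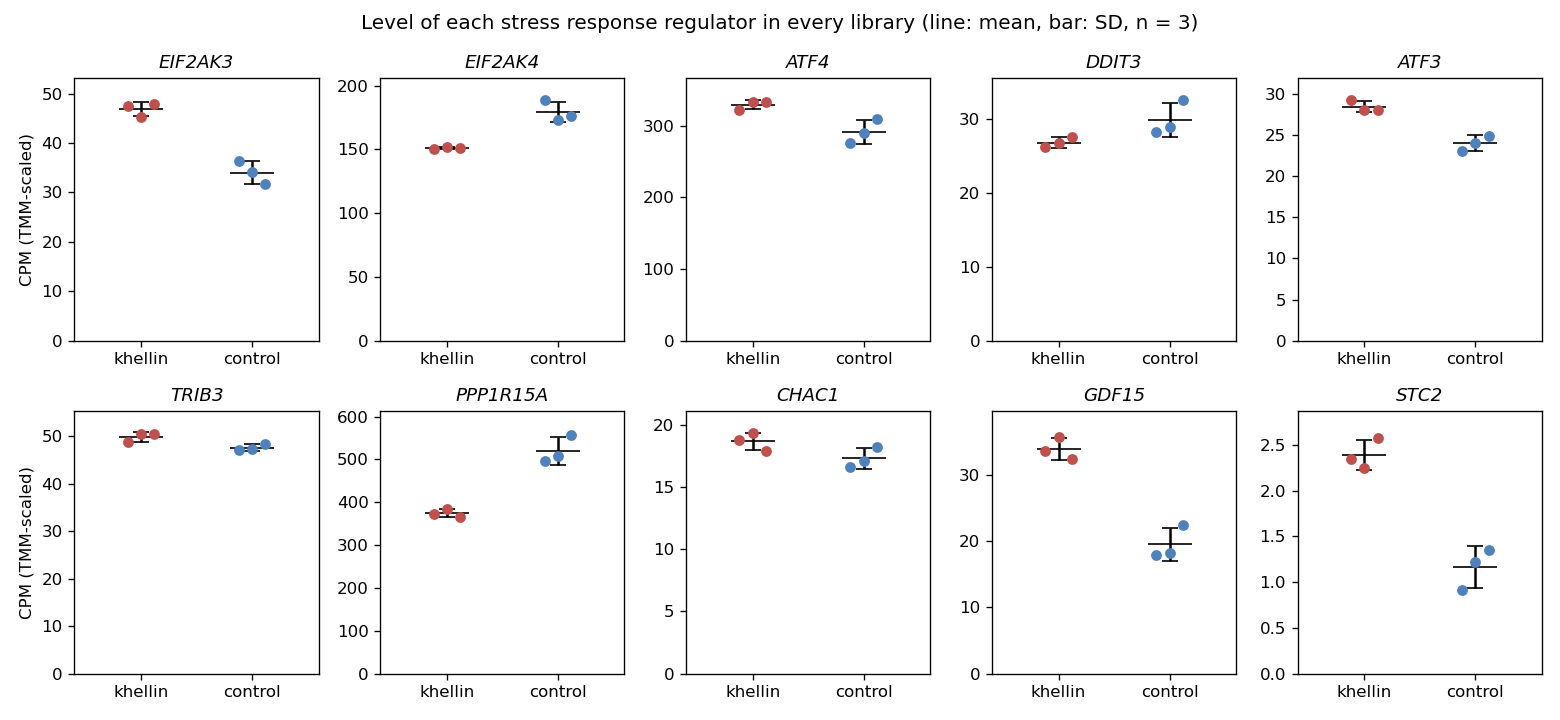
Level of each of the 10 regulators in CPM (vertical axis, starting at 0) in every library, khellin in red left of control in blue, with the mean as a line and the SD as a bar (n = 3 per group). The khellin points lie wholly above or below the control points in 9 panels, and CHAC1 is the panel where they overlap.

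The promoters of the 10 genes were searched for motifs of the factors that act in this pathway, and the matches are shown because the windows of ATF3, CHAC1 and PPP1R15A held the motif of an ATF or C/EBP family factor. The search covered 15 RefSeq windows of 300 bases (GRCh38.p14), from 250 before to 50 after each annotated start, on both strands. The motifs were the C/EBP-ATF response element (CARE, TGATGNAA), the CRE (TGACGTCA), the AP-1 site (TGANTCA) and the ER stress response element by name. Each line below gives 30 bases, 5′ to 3′ on the strand of the gene, with the match in capitals.
ATF3, CARE, chr1:212565205-212565234, plus strand: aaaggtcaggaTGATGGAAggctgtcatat
CHAC1, CARE read on the opposite strand, chr15:40953251-40953280, plus strand: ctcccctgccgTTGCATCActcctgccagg
PPP1R15A, CRE, chr19:48872352-48872381, plus strand: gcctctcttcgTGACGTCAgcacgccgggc
DDIT3, AP-1, chr12:57520735-57520764, minus strand: gcgcgcgcaTGACTCAcccacctcctccgt
EIF2AK4, AP-1, chr15:39933892-39933921, plus strand: attcctatctgTGATTCAtttcttaagttc
Counted from the annotated start, the match began at -191 in the upstream window of ATF3, -209 in CHAC1, -58 in PPP1R15A, -241 in DDIT3 (-238 from its other start) and -212 in EIF2AK4. Over all 35116 promoter windows of the table, 3.617% held a CARE, 1.848% a CRE, 7.709% an AP-1 site and 0.077% an ER stress response element. The other ATF3 window, at a start further downstream in the gene, held no match, nor did the windows of ATF4, TRIB3, GDF15, STC2 and EIF2AK3. The windows of ATF4, TRIB3, GDF15, EIF2AK3, DDIT3 and CHAC1 lie inside the gene spans given below, whose outer 5′ ends were not searched. The matches of DDIT3 and CHAC1 thus lie within the spans of these genes. The PPP1R15A window crosses the outer 5′ end of its span, and its CRE also lies within the span. A match is a description of the sequence and not of binding.

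The kinase genes moved apart, with PERK higher and GCN2 lower in khellin libraries. EIF2AK3 (chromosome 2, 88556741 to 88691518, minus strand, GRCh38) had 47.5, 45.3 and 48.0 CPM in khellin replicates 1 to 3, against 36.4, 34.1 and 31.6 CPM in control replicates 1 to 3. Every khellin library was above every control library, with means of 46.9 ± 1.43 and 34.0 ± 2.36 CPM (SD, n = 3 per group). The log2 fold change was 0.46 (SE 0.0661, 95% interval 0.31 to 0.61, edgeR adjusted p = 0.00141). The noncoding gene AC104134.1 lies opposite EIF2AK3 and shares 781 exon bases with it, 14.4% of the EIF2AK3 exons, but had only 6, 2 and 4 reads in khellin and 2, 0 and 1 in control libraries.

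EIF2AK4 (chromosome 15, 39934115 to 40035591, plus strand) had 150.0, 152.0 and 150.9 CPM in khellin replicates 1 to 3 and 188.6, 173.1 and 176.6 CPM in control replicates 1 to 3. The khellin libraries lay close together and below all controls, with means of 151 ± 1.01 and 179 ± 8.13 CPM (SD, n = 3 per group). GCN2 mRNA fell, with a log2 fold change of -0.25 (SE 0.0459, 95% interval -0.35 to -0.15, edgeR adjusted p = 0.00538). Both kinase calls held in each of the 16 ways of fitting that were tried, with an edgeR, DESeq2 or limma-voom adjusted p of at most 0.0136 for EIF2AK3 and 0.0369 for EIF2AK4. Within a library the EIF2AK3 to EIF2AK4 log2 ratio of CPM was -1.66, -1.75 and -1.65 in khellin and -2.38, -2.34 and -2.48 in control libraries. It differed by 0.71 between the groups, with no overlap (2-sided exact permutation p = 0.1, 0.1 after adjustment over 6 ratios, the smallest that 3 against 3 libraries allow). With EIF2AK3 above and EIF2AK4 below all controls, the ratio could not overlap, so its p adds no support.

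The other eIF2 kinases and the eIF2 subunits gave smaller values. EIF2AK1, the haem-regulated kinase, had 159 ± 4.31 CPM in khellin and 139.9 ± 1.14 CPM in control libraries (log2 fold change 0.19, SE 0.0419, edgeR adjusted p = 0.0135). Leaving out control replicate 2 (edgeR adjusted p = 0.07), khellin replicate 1 (0.0742) or khellin replicate 2 (0.0569) ended that call. EIF2AK2, the kinase PKR, had 94.6 ± 6.79 CPM in khellin and 104 ± 14.9 CPM in control libraries, did not pass the test (log2 fold change -0.14, edgeR adjusted p = 0.364) and passed only with the length and GC correction (0.00506). So 2 kinase genes rose, 1 fell and 1 did not pass.

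A list of 22 genes held the eIF2 kinases, eIF2, eIF2B, PPP1R15B, PPP1CA, PPP1CB, PPP1CC, GCN1, IMPACT, DNAJC3, NCK1, DELE1 and OMA1. It did not hold PPP1R15A. All were tested, and 2 rose, 3 fell and 17 did not pass, with a median log2 fold change of -0.05. The share called is near the 19.4% of all tested genes. The falls besides EIF2AK4 were those of EIF2S1 and EIF2S3, the alpha and gamma subunits of eIF2. EIF2S1 had 208.6 ± 4.64 CPM in khellin and 239 ± 9.02 CPM in control libraries (log2 fold change -0.20, edgeR adjusted p = 0.0134), a call lost without khellin replicate 1 (0.0536), 2 (0.0617) or 3 (0.0602) and with the length and GC correction (0.071). EIF2S3 had 129 ± 4.33 and 147 ± 3.40 CPM in khellin and control libraries (log2 fold change -0.18, edgeR adjusted p = 0.02), a call lost with library size alone (0.0538) and without khellin replicate 2 (0.0846) or 3 (0.0911) or control replicate 2 (0.056). EIF2B3, a subunit of the exchange factor that recharges eIF2, stood at -0.17 (edgeR adjusted p = 0.108) and passed with the length and GC correction (0.0218). The count of 5 called genes was 2 without khellin replicate 2 and 3 without khellin replicate 1, without khellin replicate 3 and without control replicate 2. With the length and GC correction it was 10, of which 2 were higher and 8 lower.

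ATF4, the central transcription factor of the response, rose slightly, and CHOP mRNA did not rise with it. ATF4 (chromosome 22, 39519695 to 39522683, plus strand) had 322, 334 and 333 CPM in khellin replicates 1 to 3 and 276, 291 and 309 CPM in control replicates 1 to 3. The lowest khellin library was above the highest control library by less than the range of the controls, and the means were 329 ± 6.64 and 292 ± 16.8 CPM (SD, n = 3 per group). The difference was 12.9%, a log2 fold change of 0.18 (SE 0.0494, 95% interval 0.06 to 0.29, edgeR adjusted p = 0.0348). The call was made in 8 of 16 fits. It was lost with RLE factors (0.0524), upper quartile factors (0.0574) and DESeq2 (0.0718), and in edgeR without control replicate 1 (adjusted p = 0.0625) or 2 (0.119) or khellin replicate 1 (0.0835), 2 (0.109) or 3 (0.136). The log2 fold change stayed between 0.13 and 0.22 in all of these fits.

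DDIT3 (chromosome 12, 57516588 to 57521737, minus strand), which encodes the pro-apoptotic factor CHOP, had 26.2, 26.9 and 27.6 CPM in khellin replicates 1 to 3 and 28.3, 28.95 and 32.6 CPM in control replicates 1 to 3. All khellin values were below all control values, with means of 26.9 ± 0.685 and 29.96 ± 2.33 CPM (SD, n = 3 per group), but the difference did not pass the test. Its log2 fold change was -0.16 (SE 0.07, 95% interval -0.31 to 0.0007, edgeR adjusted p = 0.152), so an upward change of more than 0.0007 lay outside the interval. Of the 16 fits, only the one with the length and GC correction passed, at -0.15 (edgeR adjusted p = 0.0427). DDIT3 exons share 355 bases, 27.2% of their length, with the methionyl-tRNA synthetase gene MARS1 on the opposite strand and 58 bases, 4.44%, with MBD6. MARS1 had 6316, 6973 and 7031 reads in khellin and 6395, 6385 and 7167 in control libraries, whereas DDIT3 had 760, 799 and 847 reads in khellin and 838, 852 and 986 in control libraries. No source used here gives the strand setting of the counting, so the gene to which reads of the shared bases belong is uncertain.

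Within a library the DDIT3 to ATF4 log2 ratio of CPM was -3.62, -3.63 and -3.59 in khellin and -3.28, -3.33 and -3.24 in control libraries. The khellin ratios were lower by 0.33, well beyond the SD of 0.0206 in khellin and 0.0416 in control libraries, and did not overlap with the controls (2-sided exact permutation p = 0.1, 0.1 after adjustment over 6 ratios). With DDIT3 below and ATF4 above all controls, overlap was not possible, so the p adds no support. This ratio carries the same overlap of DDIT3 with MARS1 as the level does.

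ATF3, a stress-induced factor that can repress or activate its targets, had 29.3, 28.1 and 28.1 CPM in khellin replicates 1 to 3 and 23.1, 24.1 and 24.98 CPM in control replicates 1 to 3. The gene lies on the plus strand of chromosome 1 (212565334 to 212620777). The gap between the groups was wider than the range within either of them, with means of 28.5 ± 0.658 and 24.1 ± 0.937 CPM (SD, n = 3 per group). The log2 fold change was 0.24 (SE 0.0603, 95% interval 0.11 to 0.38, edgeR adjusted p = 0.0201). ATF3 passed in 12 of 16 fits and lost the call without control replicate 2 (edgeR adjusted p = 0.0784) or khellin replicate 1 (0.0928), 2 (0.0545) or 3 (0.0725).

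**Figure D2:**
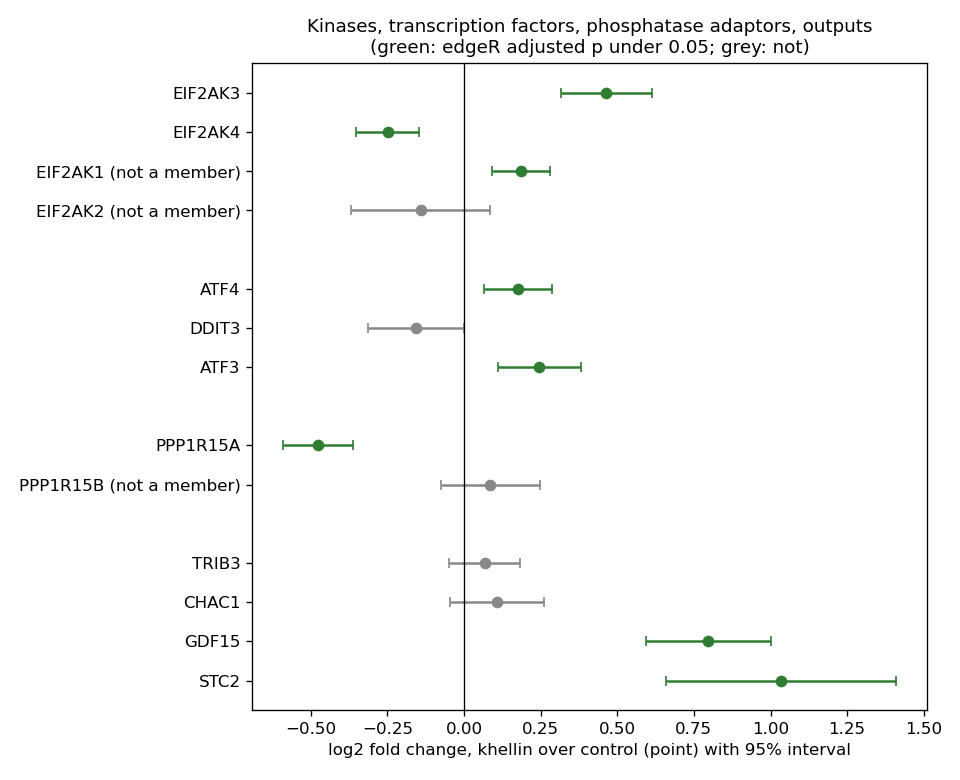
Log2 fold change of khellin over control (horizontal axis, points) with its 95% interval (bars) for the 10 regulators and 3 relatives, from edgeR on 3 khellin and 3 control libraries, green where the adjusted p was under 0.05. EIF2AK3 lies right of 0 and EIF2AK4 and PPP1R15A left of it, and the interval of DDIT3 ends at 0.

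The strongest fall was that of PPP1R15A, whose product GADD34 directs protein phosphatase 1 to eIF2 and so ends the response. PPP1R15A (chromosome 19, 48872212 to 48876059, plus strand) had 373, 384 and 365 CPM in khellin replicates 1 to 3 and 496, 508 and 557 CPM in control replicates 1 to 3. All khellin libraries were far below all control libraries, with means of 374 ± 9.41 and 520.4 ± 32.3 CPM (SD, n = 3 per group). PPP1R15A was 28.1% lower, a log2 fold change of -0.48 (SE 0.0511, 95% interval -0.59 to -0.36, edgeR adjusted p = 0.00029). The call held in all 16 fits, with an adjusted p of at most 0.00452.

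PPP1R15B, the constitutive adaptor of the same phosphatase, had 129 ± 4.97 CPM in khellin and 122 ± 12.6 CPM in control libraries and did not pass (log2 fold change 0.09, SE 0.0716, edgeR adjusted p = 0.445). It passed without control replicate 1 (log2 fold change 0.17, edgeR adjusted p = 0.0318). PPP1R15B was added after its values were seen. The PPP1R15A to PPP1R15B log2 ratio was 1.53, 1.63 and 1.45 in khellin and 1.87, 2.12 and 2.32 in control libraries, lower by 0.57 in khellin (2-sided exact permutation p = 0.1, 0.1 adjusted over 6 ratios). Against ATF4 the PPP1R15A log2 ratio was 0.21, 0.20 and 0.13 in khellin and 0.85, 0.81 and 0.85 in control libraries, lower by 0.65 (exact permutation p = 0.1, 0.1 adjusted). That p adds no support, since PPP1R15A lay below and ATF4 above all controls.

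TRIB3, a pseudokinase induced by ATF4 and CHOP that in turn restrains ATF4, had 48.8, 50.5 and 50.6 CPM in khellin replicates 1 to 3 and 47.2, 47.4 and 48.4 CPM in control replicates 1 to 3. The gene lies on the plus strand of chromosome 20 (362835 to 397559). Khellin libraries were above control libraries by a narrow margin, with means of 49.9 ± 1.03 and 47.7 ± 0.654 CPM (SD, n = 3 per group). TRIB3 did not pass the test in any of the 16 fits (log2 fold change 0.07, SE 0.0517, 95% interval -0.05 to 0.18, edgeR adjusted p = 0.401). Its log2 ratio to ATF4 was -2.72 in each khellin library and -2.55, -2.62 and -2.68 in control libraries, lower by 0.11 in khellin (exact permutation p = 0.1, 0.1 adjusted over 6 ratios).

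CHAC1, a glutathione-degrading enzyme gene and a target of ATF4, had 18.8, 19.4 and 17.9 CPM in khellin replicates 1 to 3 and 16.6, 17.2 and 18.3 CPM in control replicates 1 to 3. Control replicate 3 lay above khellin replicate 3, and the means were 18.7 ± 0.719 and 17.4 ± 0.855 CPM (SD, n = 3 per group). CHAC1 (chromosome 15, 40952962 to 40956512, plus strand) did not pass in any of the 16 fits (log2 fold change 0.11, SE 0.0683, 95% interval -0.05 to 0.26, edgeR adjusted p = 0.312). The interval thus leaves room for a change of up to 0.26 on the log2 scale. Its log2 ratio to ATF4 was -4.10, -4.11 and -4.21 in khellin and -4.05, -4.08 and -4.08 in control libraries, a difference of -0.07 (exact permutation p = 0.1, 0.1 adjusted over 6 ratios).

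**Figure D3:**
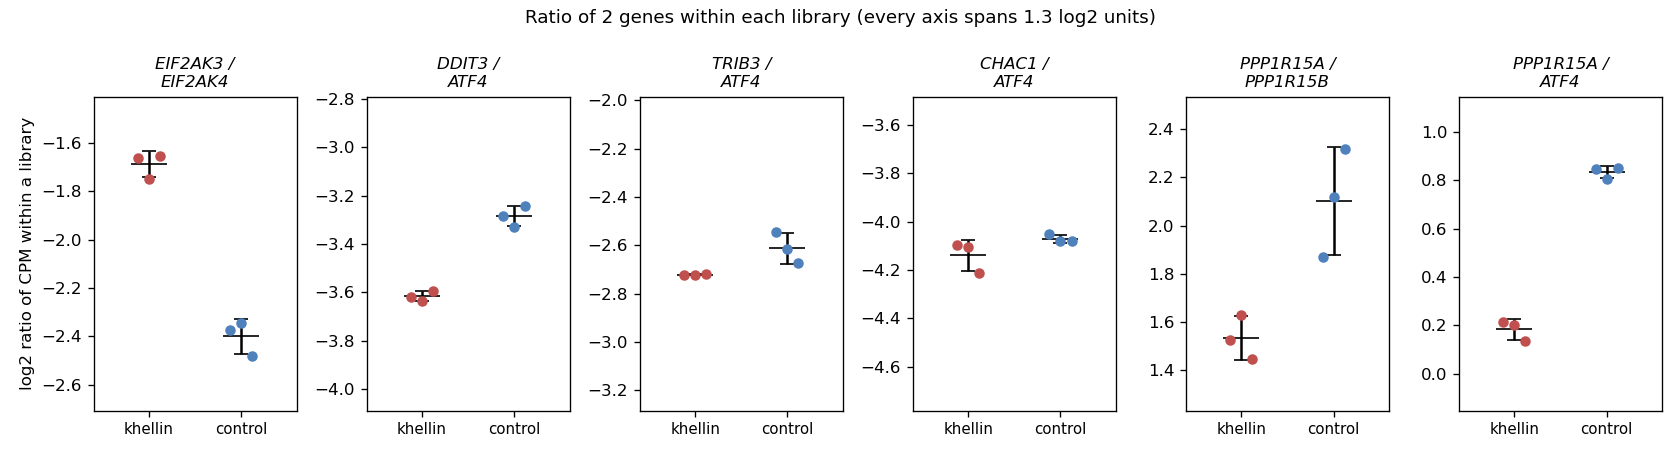
Log2 ratio of the CPM of 2 genes within each library (vertical axes, all of the same span at different heights), khellin in red left of control in blue, with mean and SD (n = 3 per group). The EIF2AK3 to EIF2AK4 ratio is higher in khellin libraries, the ratios of DDIT3 and PPP1R15A to ATF4 are lower, and those of TRIB3 and CHAC1 to ATF4 differ by about 0.1 or less.

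The secreted outputs rose the most. GDF15, a stress-induced cytokine of the TGF-beta superfamily that acts on appetite through a brainstem receptor, had 33.7, 35.7 and 32.4 CPM in khellin replicates 1 to 3 and 17.9, 18.3 and 22.4 CPM in control replicates 1 to 3. The gene lies on the plus strand of chromosome 19 (18374731 to 18389176). Even the highest control library was well below the lowest khellin library, with means of 33.9 ± 1.70 and 19.5 ± 2.49 CPM (SD, n = 3 per group) and a ratio of 1.74 (95% interval of the log2 fold change 0.59 to 1.0002, edgeR adjusted p = 0.000401). The log2 fold change lay between 0.74 and 0.90 over the 16 fits, all of which called it.

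STC2, the gene of the secreted glycoprotein stanniocalcin 2 and an ATF4 target, was the lowest of the 10 in level. It had 68, 67 and 79 reads in khellin replicates 1 to 3, 2.34, 2.25 and 2.57 CPM. In control replicates 1 to 3 it had 27, 36 and 41 reads, 0.912, 1.22 and 1.36 CPM. Each khellin library held more reads than any control library, with means of 2.39 ± 0.164 and 1.16 ± 0.228 CPM (SD, n = 3 per group), a 2.05-fold difference (95% interval of the log2 fold change 0.66 to 1.41, edgeR adjusted p = 0.0027). STC2 (chromosome 5, 173314723 to 173328447, minus strand) was called in all 16 fits, with log2 fold changes of 0.89 to 1.16. At these counts its interval was the widest of the 10.

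Levels of different genes were compared as CPM per kilobase of exon (GENCODE 29 gene models). In khellin libraries ATF4 stood first at 131 ± 2.64, before PPP1R15A at 120.9 ± 3.04, DDIT3 at 20.6 ± 0.524, GDF15 at 16.3 ± 0.816, TRIB3 at 14.5 ± 0.301 and EIF2AK4 at 12.6 ± 0.0846. CHAC1 at 9.09 ± 0.349 and EIF2AK3 at 8.63 ± 0.264 followed and did not differ beyond their spread, then came ATF3 at 7.06 ± 0.163 and STC2 at 0.39 ± 0.0268 (SD, n = 3). In control libraries PPP1R15A stood before ATF4, at 168.2 ± 10.4 and 116.1 ± 6.67 CPM per kilobase. DDIT3 at 22.9 ± 1.78, EIF2AK4 at 15.01 ± 0.68 and TRIB3 at 13.9 ± 0.19 came next. GDF15 at 9.36 ± 1.19 and CHAC1 at 8.43 ± 0.416 had overlapping spreads, as had EIF2AK3 at 6.26 ± 0.434 and ATF3 at 5.96 ± 0.232, and STC2 was last at 0.19 ± 0.0372 (SD, n = 3). ATF4 and PPP1R15A thus changed places at the top, and GDF15 stood 6th in control and 4th in khellin libraries. In CPM not divided by length, PPP1R15A stood above ATF4 in every library. Their change of places therefore rests on the exon lengths used, 2514 bases for ATF4 and 3093 for PPP1R15A, merged over annotated transcripts.

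The SD was larger in control than in khellin libraries for each of the 10 genes except TRIB3. For 8 of the 10 genes control replicate 3 was the highest and control replicate 1 the lowest of the controls, and EIF2AK3 and EIF2AK4 were the exceptions, with control replicate 1 highest. In ATF4, ATF3, GDF15 and STC2, which rose, control replicate 3 was therefore the control nearest to the khellin libraries, and in PPP1R15A and DDIT3 it was the farthest from them.

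Known targets of ATF4 included both genes that rose and many that did not pass. Of 48 genes listed, 45 were tested, of which 15 rose (2 of them STC2 and ATF3), 0 fell and 30 did not pass edgeR's test, with a median log2 fold change of 0.12. Over all tested genes 10.6% were higher and 8.82% lower. At an unadjusted edgeR p under 0.05 there were 3 lower genes, DESeq2 called 13 higher and 1 lower, and limma-voom called 0 lower. The length and GC correction gave 17 higher and 9 lower. The count of 15 became 7 without control replicate 2, 9 without khellin replicate 1 and 8 without khellin replicate 2 or 3. Of the targets outside the 10 genes, DDIT4, an inhibitor of mTORC1, had 169.6 ± 9.19 CPM in khellin and 75.0 ± 7.88 CPM in control libraries, and the glycine transporter gene SLC6A9 had 17.7 ± 0.609 and 11.2 ± 0.304 CPM. VEGFA, an angiogenic growth factor gene that also answers to hypoxia, had 178 ± 3.93 and 128 ± 8.07 CPM in khellin and control libraries (log2 fold change 0.47, edgeR adjusted p = 0.000356). SLC7A5, a large neutral amino acid transporter gene, had 408 ± 9.72 and 334 ± 7.89 CPM (log2 fold change 0.29, edgeR adjusted p = 0.00131). ASNS, the asparagine synthetase gene that is a classic ATF4 target, was low, at 3.59 ± 0.358 CPM in khellin and 3.29 ± 0.158 CPM in control libraries, and did not pass (log2 fold change 0.12, edgeR adjusted p = 0.496). PSAT1, of serine synthesis, had a log2 fold change of 0.13 (edgeR adjusted p = 0.0568) and passed in 5 alternative fits, among them those without control replicate 1 (0.0425) and 3 (0.0434). ASNS and PSAT1 were named after their values were seen.

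Of 13 CHOP targets listed, 12 were tested, 1 rose, 1 fell and 10 did not pass, a share called that is near the 19.4% of all tested genes, with a median of 0.05. The fall was that of PPP1R15A and the rise that of PMAIP1, which encodes the BH3 protein NOXA, with 91.9 ± 2.24 CPM in khellin and 81.2 ± 2.90 CPM in control libraries (log2 fold change 0.18, edgeR adjusted p = 0.0309). PMAIP1 lost the call with DESeq2 (0.0558), and in edgeR without control replicate 2 (0.094) or khellin replicate 1 (0.111), 2 (0.0614) or 3 (0.143), so the count of 2 was 1 in each of those fits. The log2 fold changes of SESN2, ERO1A, BBC3 and the death receptor gene TNFRSF10B, the last named after its values were seen, were 0.13, -0.15, 0.11 and 0.04, with edgeR adjusted p of 0.163, 0.184, 0.427 and 0.514. ERO1A, an oxidase gene of the endoplasmic reticulum, passed as lower with the length and GC correction (0.00212).

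The branches of the unfolded protein response outside PERK were mixed. Of 23 genes tested of the ATF6 and IRE1 branches, 2 rose, 4 fell and 17 did not pass, with a median of 0.01 that was -0.02 with the length and GC correction. The share called is not far from the 19.4% of all tested genes. XBP1, the factor spliced by IRE1, had 116 ± 2.46 CPM in khellin and 95.1 ± 1.67 CPM in control libraries (log2 fold change 0.28, edgeR adjusted p = 0.00206), and HERPUD1, a degradation factor gene, had 364 ± 5.57 and 313 ± 9.85 CPM (0.21, edgeR adjusted p = 0.00673). Of the chaperone genes, PDIA4 had 801 ± 11.6 CPM in khellin and 914 ± 27.6 CPM in control libraries (-0.19, edgeR adjusted p = 0.00946), and lost its call without khellin replicate 1 (0.057) or 3 (0.0607). CALR stood at -0.20 (edgeR adjusted p = 0.0221), a call not made with library size alone (0.0503) or with control replicate 2 (0.0501), khellin replicate 1 (0.11) or khellin replicate 3 (0.0773) left out. HSPA5, the chaperone BiP that holds PERK inactive, did not pass, at 2621 ± 12.9 CPM in khellin and 2676 ± 74.1 CPM in control libraries (-0.03 but 0.01 with library size alone, edgeR adjusted p = 0.624). ATF6, like HSPA5 named after its values were seen, stood at -0.19 (edgeR adjusted p = 0.0232), a call lost without control replicate 2 (0.0561), khellin replicate 1 (0.0835), 2 (0.0893) or 3 (0.0839) and with library size alone (0.0623). The count of 6 called genes was 3 without control replicate 2 and with library size alone, and 2 without khellin replicate 1 or 3.

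Among 25 bZIP partners and relatives of ATF4, CHOP and ATF3, all tested, 6 rose, 2 fell and 17 did not pass, with a median of 0.09. Over all tested genes 19.4% were called in either direction. CREB3L2, a membrane-bound relative of ATF6, had 156 ± 1.88 CPM in khellin and 99.9 ± 6.09 CPM in control libraries (log2 fold change 0.65, edgeR adjusted p = 5.57e-05). CEBPD, a C/EBP factor of inflammation, had 26.6 ± 0.530 and 18.3 ± 1.05 CPM (0.54, edgeR adjusted p = 0.000608), and DBP, a circadian output factor, 7.65 ± 0.752 and 4.64 ± 0.155 CPM (0.72, edgeR adjusted p = 0.00116). CEBPB, a partner with which ATF4 and CHOP pair, was named after its values were seen, at 0.23 (edgeR adjusted p = 0.039). It lost the call without any 1 library except control replicate 3 (0.0555 to 0.146). The count of 8 called genes was 5 without khellin replicate 2 and 4 without khellin replicate 1, without khellin replicate 3 and without control replicate 2.

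GDF15 and ATF3 stand in 2 further lists. Of 17 p53 target genes tested, GDF15 rose, CDKN1A, the cell cycle inhibitor p21, fell to 231 ± 6.14 CPM in khellin against 292 ± 20.2 CPM in control libraries (log2 fold change -0.34, edgeR adjusted p = 0.00259), and 15 did not pass, with a median of 0.03. The share called is below the 19.4% of all tested genes. PPM1D, FDXR and BAX stood at 0.16, 0.22 and -0.21 (edgeR adjusted p = 0.0788, 0.118 and 0.133). Without control replicate 1, and without control replicate 3, 4 genes of this list were called, BAX (edgeR adjusted p = 0.0212) in the first case and FDXR (0.0251) in the second among them. Of 19 immediate early genes, where ATF3 also belongs, 9 rose, 2 fell and 8 did not pass, with a median of 0.25, and 7 were called without control replicate 2. Over all tested genes 10.6% were higher and 8.82% lower. FOSL2, an AP-1 subunit gene, had 242 ± 2.99 CPM in khellin and 113 ± 2.28 CPM in control libraries, and the phosphatase gene DUSP1 had 113 ± 3.27 and 62.5 ± 4.01 CPM. The nuclear receptor genes NR4A3 and NR4A2 had log2 fold changes of 0.96 and 0.60 (edgeR adjusted p = 0.00115 and 0.00271), against 0.24 for ATF3.

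Paralogues of the outputs had values of their own. TRIB2 had 37.9 ± 1.51 CPM in khellin and 19.2 ± 1.12 CPM in control libraries (log2 fold change 0.98, edgeR adjusted p = 2.12e-05), where TRIB3 stood at 0.07. STC1 had 340 ± 9.56 and 314 ± 2.68 CPM (0.11, edgeR adjusted p = 0.0776), where STC2 rose by 1.03. CHAC2, the other cytosolic glutathione cyclotransferase, had 9.48 ± 1.52 and 12.7 ± 0.233 CPM in khellin and control libraries (-0.42, edgeR adjusted p = 0.0265), a call not made with control replicate 2 (0.0812), khellin replicate 1 (0.0665) or khellin replicate 2 (0.058) left out. GGCT, another gamma-glutamyl cyclotransferase gene, stood at -0.24 (edgeR adjusted p = 0.0513) and passed in 6 alternative fits, among them that without control replicate 3 (0.0227). The list of stanniocalcin, GDF15, CHAC, tribbles and PPP1R15 relatives also held the regulators STC2, GDF15, CHAC1, TRIB3 and PPP1R15A. With them, 11 of 12 genes were tested, 3 rose, 2 fell and 6 did not pass, with a median of 0.09. Without the 10 regulators, 6 genes were tested, 1 rose, 1 fell and 4 did not pass, with a median of -0.02. Over all tested genes 19.4% were called in either direction. The differences between paralogues were not tested.

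**Figure D4:**
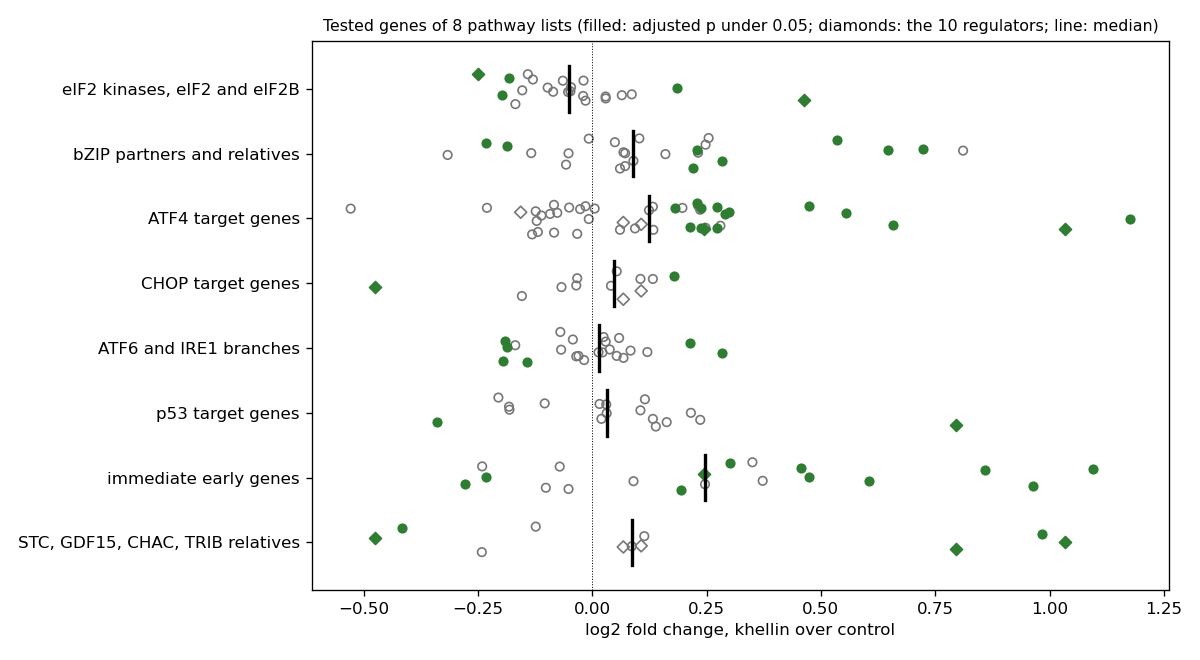
Log2 fold change of khellin over control (horizontal axis) of every tested gene of the 8 pathway lists, filled where edgeR's adjusted p was under 0.05, with the 10 regulators as diamonds and the list median as a black line. The medians run from -0.05 for the eIF2 list to 0.25 for immediate early genes.

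The genes most like a regulator over the 6 libraries were found by Pearson's r of log2 CPM among 10853 genes of at least 5 CPM, as a description without a test, since all share libraries and groups. For ATF4 they were INPP5E (r = 0.998), TK1 (0.997) and UNC119 (0.996). For DDIT3 they were CIAO2A (0.998), MRFAP1 (0.997) and SERTAD1 (0.997), and for TRIB3 SLC16A5 (0.998), MED22 (0.994) and HPS4 (0.991). For EIF2AK3 they were CCDC18 (0.998), CDK5RAP2 (0.998) and SCD (0.997). None of these 12 genes belongs to the 10 regulators.

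**Figure D5:**
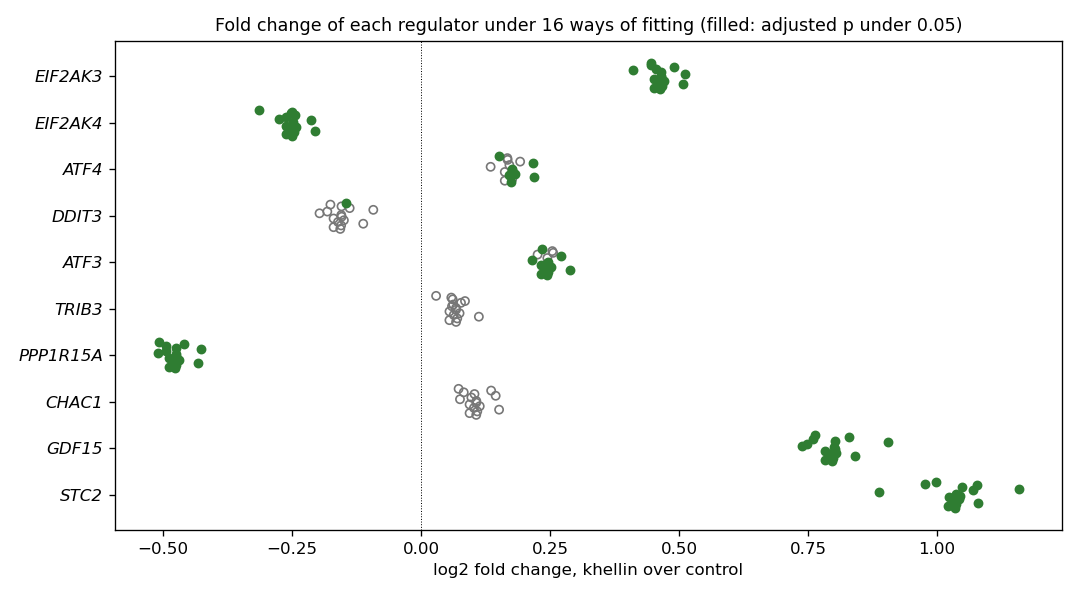
Log2 fold change of khellin over control (horizontal axis) of each regulator in 16 fits, which are the reported one and 15 others with another scaling, filter, tool, block, correction or library left out, filled where the adjusted p was under 0.05. EIF2AK3, EIF2AK4, PPP1R15A, GDF15 and STC2 are filled throughout, ATF4 in 8, ATF3 in 12, DDIT3 in 1, and TRIB3 and CHAC1 in none, and no gene crosses 0.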

How the data were processed

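The authors deposited 1 table of raw read counts per gene, made with fastp, HISAT2 and HTSeq per the submitters' processing notes. Their versions, the strand setting, the genome build and the annotation are not given in the sources used here. Positions of 25358 of 25378 gene identifiers shared with GENCODE 29 overlapped that release, so GRCh38 was inferred, and exon lengths come from it. Groups and replicate numbers come from the sample titles.

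CPM used TMM factors. Genes were filtered with edgeR's filterByExpr and tested with its quasi-likelihood test (robust, group only, 2-sided), adjusted by Benjamini-Hochberg over 15865 genes. The biological coefficient of variation was 6.95%. The standard error is the absolute log2 fold change over the square root of F. Ratios of 2 genes within a library were compared by exact permutation tests. These ratios were not among the planned tests, and all 6 gave the smallest p possible. Promoters come from RefSeq (GRCh38.p14). Library pairs differed by 1.91 to 20.8 chi-square per degree of freedom, so none was a copy.

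The members, the lists and the naming rule were chosen with earlier results of these data known. The rule named the 10 genes, every eIF2 kinase, the 4 non-members of smallest p of each list and the 3 genes most like ATF4, DDIT3, TRIB3 and EIF2AK3. Others are marked as named after their values were seen. Motif stretches of 30 bases are shown in place of whole promoters, since the windows hold annotated exons.

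As alternatives, each library was left out, the threshold was an adjusted p under 0.01, the replicate number was a block, DESeq2 or limma-voom took the place of edgeR, genes were kept unfiltered or from 1 CPM in 3 libraries, and scaling used library size only, upper quartile or RLE factors. A length and GC correction with mgcv was added after seeing the data. The software was Python 3.11.15 with matplotlib 3.10.9, and R 4.3.3 with DESeq2 1.42.0, edgeR 4.0.16, mgcv 1.9.3 and limma 3.58.1.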

Additional observations from a re-analysis of the deposited data

How the results depend on the processing

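No log2 fold change of the 10 regulators changed sign in any alternative, and the calls on EIF2AK3, EIF2AK4, PPP1R15A, GDF15 and STC2 held in all that kept the 0.05 threshold. With 1 library left out, higher genes ranged from 919 to 1990 and lower genes from 643 to 1722, the low values being 960 and 691 without khellin replicate 1, 1073 and 836 without khellin replicate 2, 919 and 643 without khellin replicate 3, and 978 and 769 without control replicate 2. Over the same fits, higher regulators ranged from 3 to 5 and lower regulators stayed at 2. Called genes then ranged from 7 to 19 of the ATF4 targets, 2 to 6 of the ATF6 and IRE1 branches, 1 to 2 of the CHOP targets, 4 to 10 of the bZIP list, 2 to 7 of the eIF2 list, 7 to 11 of the immediate early genes, 2 to 4 of the p53 targets and 4 to 6 of the relatives. At an adjusted p under 0.01 there were 808 higher and 608 lower genes, 3 higher regulators, and 7, 3, 1, 4 and 2 called genes of the ATF4, ATF6, CHOP, bZIP and eIF2 lists. The length and GC correction gave 2196 higher and 2963 lower genes, 10 called eIF2 genes, 26 ATF4 targets and 5 p53 targets. Its split of higher against lower genes and that of library size alone (2208 and 986) moved apart from the reported 1681 and 1399, DESeq2 gave 1344 and 1418, and library size alone left 3 called genes of the ATF6 list. The median over all tested genes moved to at most 0.0464. Khellin and control libraries with the same replicate number deviated from their group means with correlations of 0.136, 0.034 and -0.119, and not every library correlated best with its own number. The labels state no pairing by number, and these few correlations cannot exclude one. With the replicate number as a block, 1533 genes were higher and 1282 lower, 5 regulators higher and 2 lower, the CHOP list had 1 call, as with DESeq2, and PMAIP1 (edgeR adjusted p = 0.058) and CEBPB (0.053) did not pass. The causes of these moves were not tested. With 3 libraries a group and a biological coefficient of variation of 6.95%, changes of the size of those of TRIB3 and CHAC1 could not be told from 0, and the counts of STC2 limit its precision.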
